A study of Mus musculus with 8 samples.

Results

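Fragments of the nuclear tRNAs for leucine and serine were examined in small RNA of mature mouse sperm, with or without prior activation of AgRP neurons. A fragment was counted when every tRNA name in its annotation was a nuclear tRNA-Leu or every name was a nuclear tRNA-Ser. This rule found 3196 distinct fragments. They made up 0.697% of all reads and 6.67% of nuclear tRNA reads. Of these fragments 576 were seen in all 8 libraries and 1136 in 1 library. Fragments shared with another isotype were left out, and 99643 reads of the Ser-GGA name went with them because the same sequences are named for tRNA-Phe.

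All mice were males that had received, at 8 weeks of age, an AAV with the Cre-dependent activating DREADD hM3Dq-mCherry in the arcuate nucleus of the hypothalamus. The activated group was Agrp Cre/+ (n = 4) and the control group Agrp +/+ (n = 4), and each mouse of either group was dosed with CNO, which acts on the receptor, and had no food. Controls therefore carried the virus and the drug but no Cre, which in the Agrp Cre/+ mice limits the receptor to AgRP neurons, the hypothalamic cells that drive hunger. At 4 h after the dose, sperm of the cauda epididymidis was collected. From each mouse 1 library was made from 100 ng of RNA, and 9297271 to 23123740 reads of 15 to 45 nt were obtained per library.

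Transfer RNAs carry amino acids to the ribosome and are cut into shorter pieces in many cells, sperm among them. tRNA-Leu and tRNA-Ser are class II tRNAs, which have a long variable arm between the anticodon arm and the T arm. The tRNA for selenocysteine (SeC) has a long variable arm too, while most other tRNAs have a short one. Cuts in the anticodon loop give long 5′ and 3′ fragments, and cuts in the D arm or the T arm give shorter ones. The CCA at the 3′ end is added after transcription and is not encoded in the mouse genome.

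RefSeq (GRCm38.p6, the same primary assembly as mm10) lists 25 tRNA-Leu and 22 tRNA-Ser genes under nuclear tRNA symbols, of which 7 and 12 lie on chromosome 13. The 8 Ser-GCT genes span 5 chromosomes and are each 82 bp, and 4 of them lie on chromosome 13, among them n-TSgct2 (chr13:21492845-21492926) and n-TSgct8 (chr13:21994190-21994271). The 3 Leu-TAA genes are n-TLtaa3 (chr10:12922571-12922653), n-TLtaa2 (chr13:21848022-21848104) and n-TLtaa4 (chr19:12011086-12011168), each 83 bp. Fragments were matched to tRNA names, not to loci, so the gene that gave a read cannot be told apart among copies.

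The 5′ fragments are shown first because they held 45.1% of tRNA-Leu reads and 59.5% of tRNA-Ser reads. Capitals mark GGCCGAG, in the 5′ part of the D arm, and anticodons name the tRNAs from which a sequence can come.
Leu-AAG/TAG, 26 nt: ggtagcgtGGCCGAGcggtctaaggc
Leu-AAG/TAG, 16 nt: ggtagcgtGGCCGAGc
Leu-CAG, 26 nt: gtcaggatGGCCGAGcggtctaaggc
Ser-GCT, 25 nt: gacgaggtGGCCGAGtggttaaggc
Ser-GCT, 24 nt: gacgaggtGGCCGAGtggttaagg
Ser-GCT, 15 nt: gacgaggtGGCCGAG
Ser-AGA/TGA, 24 nt: gtagtcgtGGCCGAGtggttaagg
Ser-CGA, 15 nt: gtcacggtGGCCGAG

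The motif GGCCGAG began at base 9 in every 5′ read of tRNA-Leu and, but for 1 read, in every 5′ read of tRNA-Ser. It was found in 1.91e-05% of the 5′ reads of the other nuclear tRNAs and in 0.685% of all reads. The leading tRNA-Leu fragment of 26 nt holds GCC at bases 10 to 12 and its complement GGC at bases 24 to 26, the strands of the D stem, so it ends with the last base of the stem. In the Ser-GCT fragment of 25 nt the GGC lies at bases 23 to 25, again the last of the fragment. Fragments of 15 nt end with the final G of the motif.

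The fragments of the T arm side are shown next because 3 Leu-TAA fragments fit together. Capitals mark the last 4 bases of the internal fragments, the first 4 bases of the CCA fragments of 22 nt, and the CCA.
Leu-TAA internal, 17 nt: catatgtctgcgtGGGT
Leu-TAA CCA end, 22 nt: TCGAaccccactcctggtaCCA
Leu-TAA CCA end, 39 nt: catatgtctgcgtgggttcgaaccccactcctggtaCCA
Leu-CAA internal, 17 nt: cgtatggaggcgtGGGT
Leu-AAG internal, 21 nt: agtctcttcgggggcgtGGGT
Ser-TGA CCA end, 22 nt: TCGAaccctgctcgctgcgCCA

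The Leu-TAA fragment of 39 nt is the internal fragment of 17 nt followed by the CCA fragment of 22 nt, base for base. Of the internal tRNA-Leu reads 50.2% ended in GGGT, the bases before TCGA in the T loop, against 9.41% of internal reads of the other nuclear tRNAs. In tRNA-Ser 4.55% of internal reads had that end. Reads of the CCA end began with TCGA in 12.3% of cases for tRNA-Leu, 24.5% for tRNA-Ser and 10.6% for the other nuclear tRNAs. These shares describe the reads of all 8 libraries and were not tested.

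Fragments of either isotype were short. At the 5′ end, tRNA-Leu had 61.1% of its reads at 24 to 26 nt and 32.5% at 15 to 16 nt, and tRNA-Ser had 48.2% and 48.4%. Few 5′ reads were longer, 0.329% of tRNA-Leu and 0.0849% of tRNA-Ser reads at 27 nt or more. The length with the highest mean level was 26 nt for tRNA-Leu, at 1047 RPM (reads per 1000000 reads of a library) over 8 libraries, and 15 nt for tRNA-Ser, at 921 RPM. In activated replicate 1 and control replicate 4 tRNA-Leu was higher at 16 nt than at 26 nt. The tRNA-Ser value leans on control replicate 3, at 3718 RPM against 375 to 884 RPM in the other 7 libraries, and in activated replicate 4 and control replicate 2 the level at 24 nt was the higher one. In 6 of 8 libraries 5′ fragments of 24 to 26 nt outnumbered those of 15 to 16 nt in tRNA-Ser. Reads under 15 nt were not kept, so levels below that length are not known. Internal fragments held 37.6% of tRNA-Leu reads but 9.60% of tRNA-Ser reads, and the CCA end held 17.1% and 30.6%. Reads named for a 3′ end without CCA were rare, 0.235% and 0.296%.

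**Figure D1:**
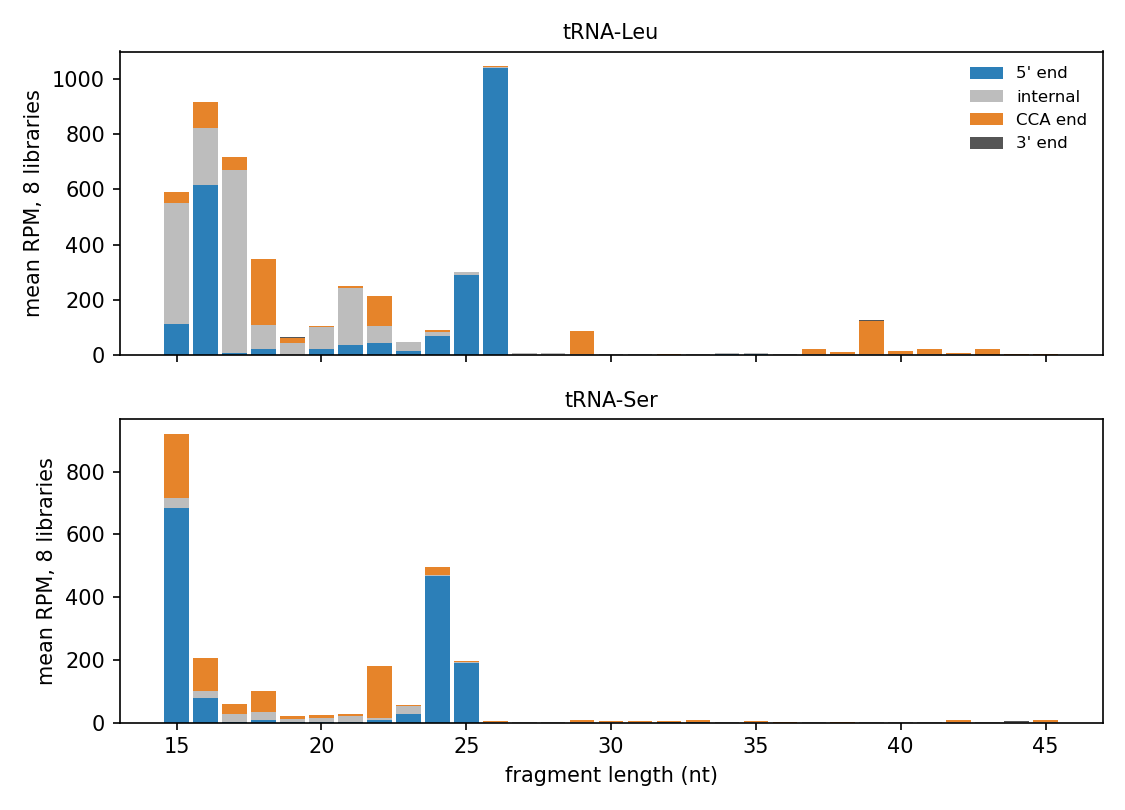
Mean level in RPM over the 8 libraries (vertical axis) of tRNA-Leu (top) and tRNA-Ser (bottom) fragments by length in nt (horizontal axis), stacked by end class. tRNA-Leu peaks at 26 nt with 1047 RPM and has a further CCA end peak at 39 nt. tRNA-Ser is highest at 15 nt, the shortest length kept, with 921 RPM, a mean raised by control replicate 3 (3718 RPM).

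Fragments that reach the anticodon loop were nearly absent at the 5′ end. Among 5′ fragments, those of 30 nt or more took 0.168% to 0.715% of RPM for tRNA-Leu (median 0.246%, 8 libraries) and 0% to 0.214% for tRNA-Ser (median 0.0575%). The 0 came from activated replicate 4, where a count of 0 still allows up to 3 reads. In the same libraries the share was 97.5% to 98.8% for tRNA-Glu, 81.3% to 90.0% for tRNA-Gly and 59.98% to 82.8% for tRNA-SeC. No library of tRNA-Leu or tRNA-Ser came near any library of these 3 isotypes. Low shares were also seen for tRNA-Ala (1.18% to 3.47%), tRNA-Ile (0% to 0.138%) and tRNA-Met (0% to 0.993%), whose 5′ levels were 858, 87.8 and 57.7 RPM, and tRNA-Cys lay between (21.7% to 31.4%), so short 5′ fragments were not limited to tRNAs with a long variable arm.

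**Figure D2:**
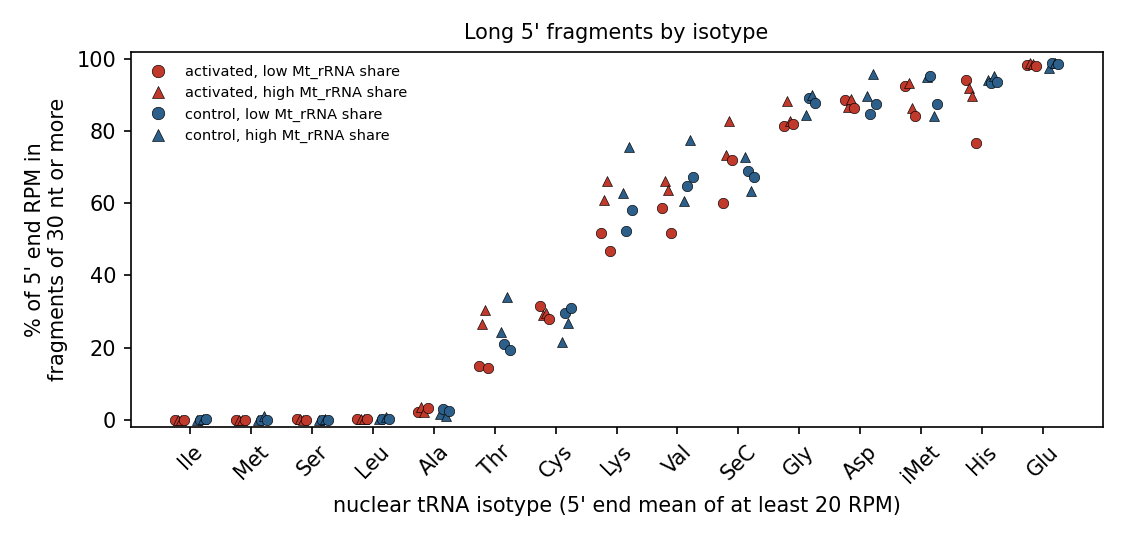
Percent of 5′ end RPM in fragments of 30 nt or more (vertical axis) for each nuclear tRNA isotype with at least 20 RPM of 5′ fragments (horizontal axis), 1 point per library, activated in red and control in blue, circles and triangles for libraries with a low or high Mt_rRNA share. tRNA-Leu and tRNA-Ser lie below 1% in all 8 libraries, while tRNA-Glu lies above 97%.

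Some libraries stood apart before any tRNA was considered. Reads annotated as Mt_rRNA took 0.182%, 0.145%, 0.167% and 0.123% in activated replicates 1 and 4 and control replicates 2 and 4, and 1.89%, 1.69%, 1.21% and 1.09% in activated replicates 2 and 3 and control replicates 1 and 3. Each set holds 2 libraries of each group. The 4 libraries of the first set are called the low set and the others the high set. Control replicate 3 had the most rRNA, 29.6% against 13.6% to 20.0% in the other 7 libraries, the least miRNA (17.9%) and the most nuclear tRNA (15.4%). Control replicate 4 had the most miRNA (47.1%) and the least nuclear tRNA (8.03%, with 8.05% in activated replicate 3). A ratio within a set compares 2 libraries with 2, with control replicate 4 in the low set and control replicate 3 in the high set.

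Markers of sperm and testis, 13 of 13 detected, summed to 55492, 41321, 33697 and 54132 RPM in activated and 35903, 47209, 26492 and 41415 RPM in control libraries, with miR-34b the most abundant on the mean of 8 libraries and miR-34c above it in activated replicates 1 and 4 and control replicate 2. None of the markers of this list was at 0 in any library. Markers of other cells were present as well. The smooth muscle and vessel list (3 of 3 detected) summed to 36068 RPM in control replicate 4 and to 179 to 517 RPM in the other 7 libraries. In it miR-143 was the most abundant on the mean of 8 libraries, but miR-145a was above it in control replicates 3 and 4. The epithelium list (7 of 7, miR-200c the most abundant on the mean, but miR-141 above it in activated replicates 1 and 4 and control replicate 2) summed to 19420 RPM in control replicate 4 and 1085 to 3476 RPM elsewhere. These rankings too are by the mean of 8 libraries. The erythroid list (4 of 4, miR-451a the most abundant but in control replicate 4) gave 298, 83.5, 113 and 84.1 RPM in activated and 235, 532, 976 and 659 RPM in control libraries, highest in control replicate 3. The leukocyte list (4 of 4, miR-142a the most abundant) gave 862, 398, 655 and 581 RPM in activated and 343, 454, 295 and 553 RPM in control libraries. The part of these cells and of RNA quality in the tRNA results was not tested, and in bulk sperm fewer cells of a type and less RNA per cell cannot be told apart.

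tRNA-Leu fragments summed to 5409, 3932, 3859 and 4120 RPM in activated replicates 1 to 4 and to 6186, 4372, 8836 and 3742 RPM in control replicates 1 to 4. Control replicates 1 and 3 were the highest, control replicate 4 the lowest, and the groups overlapped. Means were 4330 ± 728 and 5784 ± 2283 RPM (SD, n = 4 each), a ratio of 0.749, and the difference was within the spread of the controls. In a fit of 74 RNA groups the log2 fold change was -0.23 ± 0.25 (SE; edgeR quasi-likelihood test with Benjamini-Hochberg adjustment, adjusted p = 0.798). Without control replicate 3 the RPM ratio was 0.908. It was 1.17 within the low set and 0.519 within the high set, each 2 libraries against 2, so the direction differed between the sets.

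tRNA-Ser fragments summed to 1674, 1464, 1718 and 1664 RPM in activated replicates 1 to 4 and to 2774, 1640, 6226 and 1802 RPM in control replicates 1 to 4. The activated libraries lay close together, control replicate 3 lay far above all others, and control replicate 2 lay among the activated libraries. Means were 1630 ± 113 and 3111 ± 2136 RPM (SD, n = 4 each), a ratio of 0.524. The log2 fold change was -0.72 ± 0.34 (SE; edgeR, adjusted p = 0.564), past no threshold. The RPM ratio was 0.787 without control replicate 3, 0.970 within the low set and 0.353 within the high set. Of the 74 groups edgeR called 0 (0%), with 5 at an unadjusted p under 0.05, and DESeq2 called 0 as well.

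**Figure D3:**
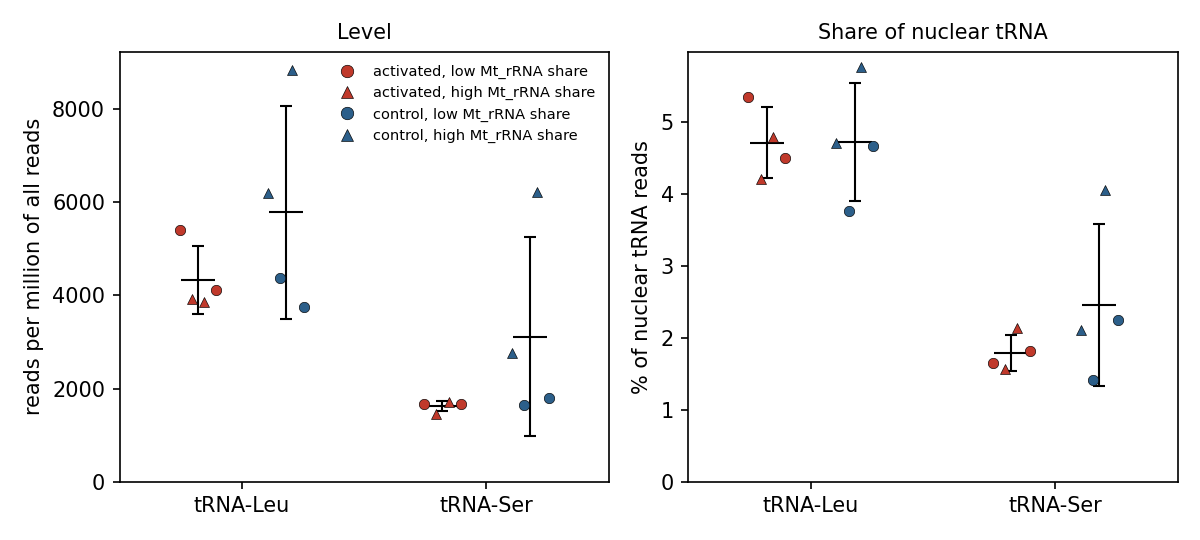
Summed fragments of tRNA-Leu and tRNA-Ser per library in RPM (left) and as a percent of nuclear tRNA reads (right), 1 point per library, activated in red and control in blue, with mean and SD in black and circles or triangles for a low or high Mt_rRNA share. Control replicate 3 is the highest point of both isotypes on both scales, with 8836 and 6226 RPM, and the groups overlap.

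As a share of nuclear tRNA reads, which sets the isotype against the other tRNAs of the same library, tRNA-Leu took 5.35%, 4.20%, 4.80% and 4.501% in activated and 4.71%, 3.76%, 5.76% and 4.66% in control libraries. The group means were nearly equal, 4.71% ± 0.490 and 4.72% ± 0.816 (SD, n = 4 each; two-sided exact permutation test, p = 1, adjusted p = 1 over 23 isotypes). tRNA-Ser took 1.66%, 1.56%, 2.14% and 1.82% against 2.11%, 1.41%, 4.06% and 2.24%. Its means were 1.79% ± 0.251 and 2.46% ± 1.13 (SD, n = 4 each; two-sided exact permutation test, p = 0.343, adjusted p = 0.450). The smallest p such a test can give here is 0.0286. The ratio of the tRNA-Ser share was 0.933 without control replicate 3, 0.951 in the low set and 0.59997 in the high set.

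Most other nuclear isotypes also had lower mean RPM in activated libraries over all 8 libraries and within the high set. Among isotypes above 10 RPM, only tRNA-Ala, tRNA-Asn, tRNA-Glu, tRNA-Gly and tRNA-Ser had a ratio below 1 within the low set. Over all libraries ratios ran from 0.522 for tRNA-Glu to 1.06 for tRNA-SeC among the same isotypes, with tRNA-Ser at 0.524. Without control replicate 3 tRNA-Glu stood at 0.665, tRNA-Gly at 0.731 and tRNA-Ser at 0.787. Glu, with unadjusted p = 0.0172 by edgeR in the fit of all groups, had an adjusted p of 0.564, as had Ser. Mitochondrial tRNA-Leu, encoded in the mitochondrial genome, averaged 40.5 ± 12.6 RPM in activated and 52.4 ± 31.3 RPM in control libraries (SD, n = 4 each). Mitochondrial tRNA-Ser averaged 628 ± 115 and 554 ± 110 RPM (SD, n = 4 each). Their adjusted p by edgeR were 0.884 and 0.564. Over the 8 libraries, tRNA-Leu ran most like tRNA-Cys (Spearman rho 1), tRNA-Phe (0.976) and then tRNA-Trp and initiator tRNA-Met (0.952 each), and tRNA-Ser most like tRNA-Ala (0.881), tRNA-Pro (0.524) and tRNA-Ile (0.476). These correlations share the depth and makeup of each library, and are given as a description with n = 8. The rho between tRNA-Leu and tRNA-Ser was 0.381, so the pair did not move in one order across libraries.

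Of the 3196 fragments, 167 passed the filter of at least 50 counts in at least 4 libraries, 112 of tRNA-Leu and 55 of tRNA-Ser. edgeR called 0 of them at an adjusted p under 0.05 with a log2 fold change beyond 1, against 61 of all 12077 fragments tested (0.505%). Of those 61 calls, 0 were lower in activated libraries. That background depends on single libraries, since leaving out 1 library gave 0 calls in 7 of 8 cases and 84 without activated replicate 2. At an unadjusted p under 0.05 there were 10 of 167 and 874 of 12077. DESeq2 called 1 of 167, the Ser-TGA 5′ fragment of 15 nt, which was lower, against 240 of 12077 (1.99%), of which 45 were lower. That fragment was under 50 counts in every activated library and over 50 in every control. It thus passed the filter only through the group where it was higher, so its call is not taken as support. All 4 activated libraries lay below all 4 controls for 3 of 167 fragments, close to the 1.47% of all fragments. These are the Ser-TGA fragment of 15 nt and the Leu-AAG/TAG 5′ fragments of 17 and 20 nt. They averaged 2.21, 3.003 and 9.58 RPM in activated and 12.7, 10.2 and 25.5 RPM in control libraries. Their ratios were 0.174, 0.294 and 0.376, and 0.341, 0.516 and 0.595 without control replicate 3.

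Mean RPM was lower in activated libraries for 157 of the 167 fragments, while it was lower for 44.5% of all fragments. Most of the latter are not from tRNA, and a lower mean was common to nuclear tRNA. Among combinations of isotype and length with at least 3 RPM, it was lower in 452 of 541 over all nuclear isotypes. For tRNA-Leu and tRNA-Ser it was lower in 42 of 48. The median ratio was 0.725 for the 167 and 1.05 for all 12077. Control replicate 3 was the highest of the 8 libraries for 126 of the 167, and for 18.02% of all fragments. Without that library 139 of the 167 had a negative fold change by edgeR, against 45.2% of all fragments. The median RPM ratio was then 0.875, and 1.06 for all fragments. At an unadjusted p under 0.05 by edgeR there were 2 of 167 and 600 of 12077. Within the low set 50 of the 167 ratios were below 1 (40.6% of all fragments), with a median of 1.12. Within the high set 163 of 167 were below 1 (44.7% of all), with a median of 0.511.

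**Figure D4:**
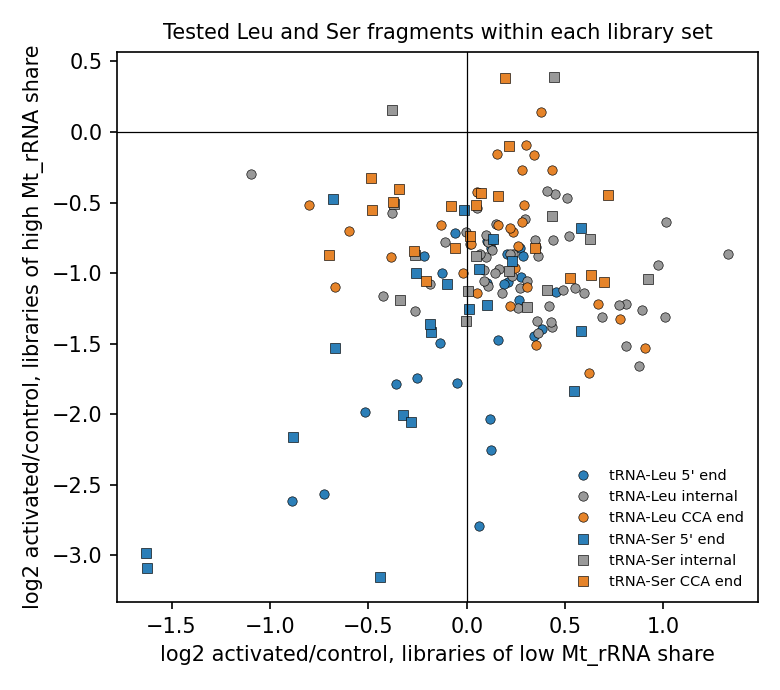
Log2 ratio of mean RPM, activated over control, of the 167 tested fragments within the libraries of low Mt_rRNA share (horizontal axis, 2 against 2) and of high Mt_rRNA share (vertical axis, 2 against 2), by isotype and end class. On the vertical axis 163 fragments lie below 0, on the horizontal axis 50 do, and the lowest points on both are 5′ fragments of tRNA-Ser.

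By end class, all 49 tested 5′ fragments had a lower mean in activated libraries (median ratio 0.632), against 43 of 50 at the CCA end (0.769) and 65 of 68 internal ones (0.750). Of all 12077 fragments tested, 44.5% had a lower mean. Among the end classes of either isotype, the 5′ fragments of tRNA-Ser had the lowest median, 0.594. Within the low set 23 of the 49 were lower (median 1.04), 15 of 50 at the CCA end (1.13) and 12 of 68 internal ones (1.20), and within the high set 49, 48 and 66 were lower (0.420, 0.613 and 0.509). Summed over the class, 5′ fragments of tRNA-Ser averaged 811 ± 143 RPM after activation against 2123 ± 1910 RPM (SD, n = 4 each), and CCA fragments to 620 ± 67.1 and 748 ± 212 RPM. For tRNA-Leu the sums were 1876 ± 413 and 2681 ± 1072 RPM at the 5′ end, 1674 ± 362 and 2115 ± 827 RPM for internal fragments, and 769 ± 66.6 and 976 ± 389 RPM at the CCA end. In each of these 5 comparisons the difference was smaller than the SD of the controls. The ratio for the 5′ end of tRNA-Ser was 0.382, and it was 0.687 without control replicate 3, 0.794 in the low set and 0.260 in the high set. For the other 4 sums the ratio was above 1 in the low set (1.11 to 1.29) and below 1 in the high set (0.480 to 0.609). A lower ratio at the 5′ end than at the CCA end was not particular to tRNA-Leu and tRNA-Ser. The 5′ and CCA sums had ratios of 0.325 and 0.920 for tRNA-Glu and 0.361 and 0.963 for tRNA-His. They were 0.544 and 0.941 for tRNA-Asp and 0.642 and 0.827 for tRNA-Gly. The order was reversed for tRNA-Ala (0.765 and 0.612) and tRNA-Cys (0.818 and 0.756).

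Summed by isotype, anticodon and end, 41 of 618 RNA species tested were of tRNA-Leu or tRNA-Ser. edgeR called 0 of 41 and 0 of all 618 (0%), with 4 and 50 at an unadjusted p under 0.05. DESeq2 called 0 of 41 and 3 of 618 (0.485%). The mean was lower in activated libraries for 36 of 41 species, against 55.8% of all. It was lower for 11 of 41 in the low set (median ratio 1.13) and for 40 of 41 in the high set (0.558), while of all 618 species 36.7% (1.102) and 53.9% (0.965) were lower. The groups did not overlap for 2 of 41, the 5′ end of Ser-TGA and the CCA end of Ser-AGA/TGA, against 1.13% of all.

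The largest tRNA-Leu species was the 5′ end of Leu-AAG/TAG, whose anticodons read CUN leucine codons. It stood at 2113, 1417, 1439 and 1414 RPM in activated and 2399, 1666, 3427 and 1470 RPM in control libraries. The groups overlapped through activated replicate 1, which lay above 2 controls, and the ratio was 1.12 in the low set and 0.490 in the high set (edgeR log2 fold change -0.47 ± 0.29, SE, adjusted p = 0.595). Its leading fragment, the one of 26 nt shown above, stood at 774, 692, 827 and 754 RPM against 1221, 764, 1540 and 561 RPM. Here control replicate 4 was the lowest of all 8 libraries (edgeR adjusted p = 0.999). The other named 5′ species of tRNA-Leu ran from a ratio of 0.526 for Leu-CAA/CAG (0.804 without control replicate 3, 1.04 in the low set) to 0.808 for Leu-CAA, with the lowest unadjusted p for Leu-TAA at 0.0329 (edgeR, adjusted p = 0.562).

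Leu-TAA, the tRNA of UUA codons, gave the 3 fragments that fit together. The fragment of 39 nt at the CCA end stood at 69.4, 73.0, 79.6 and 103 RPM in activated and 89.4, 91.5, 73.0 and 48.9 RPM in control libraries, a ratio of 1.07. The internal piece of 17 nt stood at 109, 63.8, 42.6 and 62.2 RPM against 80.5, 76.7, 115 and 56.7 RPM, a ratio of 0.844. For the piece of 22 nt the values were 22.3, 25.8, 17.4 and 24.8 RPM against 38.97, 24.95, 47.5 and 22.7 RPM, a ratio of 0.673. Control replicate 3 was the highest library for both short pieces but not for the long one. Within the low set the ratios were 1.23 (39 nt), 1.29 (17 nt) and 0.988 (22 nt), within the high set 0.940, 0.543 and 0.499, and without control replicate 3 they were 1.06, 0.974 and 0.782. None of the 3 passed the test (edgeR adjusted p = 0.999 for 39 and 17 nt and 0.859 for 22 nt), and the difference between them was not tested. Summed over tRNA-Leu, fragments of 39 nt had 1.09 times the control level on average (1.26 in the low set, 0.948 in the high set). Fragments of 37 nt had 1.21 times that level and those of 26 nt 0.751 times.

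Internal fragments of tRNA-Leu were led by the Leu-CAA fragment of 17 nt with the GGGT end, at 332, 291, 300 and 340 RPM in activated and 456, 327, 561 and 296 RPM in control libraries (edgeR adjusted p = 0.999). Control replicates 1 and 3 were again the highest. The internal Leu-AAG/CAG/TAG fragment of 15 nt, from the D arm, ran differently, with 460, 163, 98.9 and 184 RPM against 252, 221, 376 and 127 RPM. Activated replicate 1 was its highest library, and its ratio was 1.85 in the low set and 0.417 in the high set. Without activated replicate 1 the Leu-CAA/TAG internal species, at 36.6 RPM in that library and 5.42 to 14.95 RPM in the other 7, went from a log2 fold change of 0.23 to -0.47.

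The largest tRNA-Ser species was the 5′ end of Ser-GCT, the tRNA that reads AGU and AGC codons. It stood at 362, 334, 616 and 365 RPM in activated and 949, 445, 3674 and 603 RPM in control libraries. Activated replicate 3 lay above 2 controls and control replicate 3 far above the rest (edgeR log2 fold change -1.68 ± 0.68, SE, unadjusted p = 0.0353, adjusted p = 0.562). The ratio of means was 0.296, and it was 0.630 without control replicate 3, 0.693 in the low set and 0.206 in the high set. Its CCA end stood at 277, 238, 223 and 280 RPM against 361, 225, 360 and 220 RPM, a ratio of 0.874 (1.25 in the low set, 0.641 in the high set), and the activated libraries lay within the range of the controls. The internal fragments of Ser-GCT had a ratio of 0.798 (1.12 and 0.586).

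Within that species the fragment of 15 nt had the highest mean over 8 libraries, which leans on control replicate 3. Fragments of 15 to 16 nt outnumbered those of 24 to 26 nt only in control replicates 3 and 4. The fragment of 15 nt stood at 71.3, 98.5, 282 and 72.6 RPM in activated and 418, 129, 2813 and 314 RPM in control libraries. Only activated replicate 3 and control replicate 2 crossed between the groups. The edgeR log2 fold change was -2.88 (unadjusted p = 0.0119, adjusted p = 0.483). DESeq2 gave an adjusted p of 0.0621, with a log2 fold change, shrunken by apeglm, of only -0.14. The ratio of means was 0.143, and it was 0.456 without control replicate 3, 0.325 in the low set and 0.118 in the high set. It is thus one of the fragments with a ratio below 1 in both sets.

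Other tRNA-Ser fragments of 15 nt have the same last 7 bases. The largest, from Ser-AGA/TGA, stood at 63.7, 83.4, 95.4 and 58.2 RPM in activated and 124, 69.4, 392.2 and 125 RPM in control libraries, with control replicate 2 among the activated ones (edgeR adjusted p = 0.641). Its ratio was 0.423, and 0.709 without control replicate 3. The Ser-CGA fragment stood at 9.06, 7.20, 9.89 and 6.91 RPM in activated and 19.1, 8.78, 133 and 12.9 RPM in control libraries, with overlap through activated replicates 1 and 3 and control replicate 2 (edgeR log2 fold change -2.39, adjusted p = 0.552). Without control replicate 3 its ratio of 0.190 became 0.608, and it was 0.737 in the low set and 0.112 in the high set. The Ser-TGA fragment, at 2.88, 1.72, 3.18 and 1.06 RPM against 7.25, 3.98, 31.5 and 8.22 RPM, did not overlap (edgeR adjusted p = 0.272, DESeq2 adjusted p = 0.0178). It passed the count filter only through the control libraries. Its ratio was 0.174, and it was 0.341 without control replicate 3, 0.324 in the low set and 0.126 in the high set. Leu-AAG/TAG fragments of 17, 18 and 20 nt had the lowest p of tRNA-Leu but were not called (edgeR adjusted p = 0.606, 0.582 and 0.528). Control replicate 3 was the highest library for all of these.

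Longer 5′ fragments of tRNA-Ser varied less. Those of 24 to 26 nt summed to 506, 415, 569 and 563 RPM in activated and 904, 546, 1271 and 473 RPM in control libraries. Their ratio was 0.643, and it was 0.801 without control replicate 3, 1.05 in the low set and 0.452 in the high set. Those of 15 to 16 nt summed to 244, 242, 416 and 161 RPM against 636, 294, 3551 and 562 RPM, a ratio of 0.211, and 0.534 without control replicate 3, 0.473 in the low set and 0.157 in the high set. The short class divided by the long class was 0.482, 0.583, 0.732 and 0.286 in activated and 0.704, 0.538, 2.79 and 1.19 in control libraries. Control replicates 3 and 4 were the highest, and the other 6 libraries overlapped. For tRNA-Leu the same quotient was 0.924, 0.489, 0.277 and 0.337 against 0.374, 0.545, 0.533 and 0.839, with no order by group. These quotients were formed after the values were seen and were not tested.

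**Figure D5:**
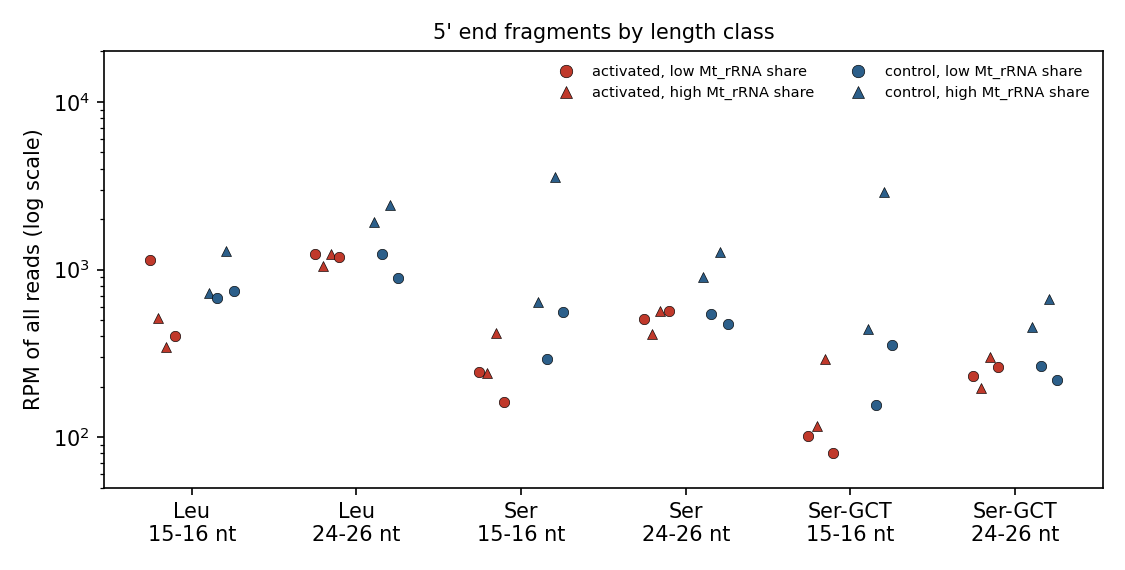
Summed 5′ fragments of 15 to 16 nt and of 24 to 26 nt in RPM on a log scale (vertical axis) for tRNA-Leu, tRNA-Ser and Ser-GCT, 1 point per library, activated in red and control in blue, circles and triangles for a low or high Mt_rRNA share. Ser-GCT fragments of 15 to 16 nt span 80.5 to 292 RPM in activated and 157 to 2912 RPM in control libraries, a wider range than at 24 to 26 nt.

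Ser-AGA/TGA, whose tRNAs read UCN codons, stood at 326, 293, 337 and 325 RPM at the 5′ end in activated and 533, 330, 961 and 374 RPM in control libraries. Activated replicate 3 lay above control replicate 2 only (edgeR adjusted p = 0.572). Ser-TGA at the 5′ end stood at 41.6, 25.1, 26.97 and 26.6 RPM against 52.9, 45.02, 109 and 43.5 RPM without overlap (edgeR log2 fold change -1.05 ± 0.33, SE, unadjusted p = 0.0123, adjusted p = 0.562). Its ratio was 0.481, and it was 0.638 without control replicate 3, 0.770 in the low set and 0.323 in the high set. At the CCA end, Ser-TGA stood at 317, 263, 242 and 331 RPM against 447, 250, 479 and 261 RPM, a ratio of 0.803, with 1.27 in the low set and 0.546 in the high set. The CCA end of Ser-CGA varied little, at 33.2 ± 0.916 RPM after activation against 34.1 ± 3.48 RPM (SD, n = 4 each).

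By length, 48 combinations of isotype and length had a mean of at least 3 RPM. All activated libraries lay below all controls in 0 of the 48, against 1.66% of the 541 combinations over all nuclear isotypes. The median ratio was 0.770 over 26 lengths of tRNA-Leu and 0.843 over 22 lengths of tRNA-Ser, and 0.845 over the 541. At 26 nt tRNA-Leu stood at 931, 817, 951 and 895 RPM in activated and 1416, 920, 1779 and 666 RPM in control libraries. At 15 nt tRNA-Ser stood at 436, 375, 535 and 397 RPM against 884, 389, 3718 and 638 RPM. In both cases control replicates 1 and 3 were the highest. At 26 nt control replicate 2 lay among the activated libraries and control replicate 4 below them, and at 15 nt control replicate 2 lay among them. The ratio at 15 nt was 0.310, and 0.684 without control replicate 3.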

How the data were processed

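The authors sequenced small RNA of sperm and deposited, for each of the 8 mice, the raw count of every distinct sequence, made with SPORTS1.1 (reads of 15 to 45 nt, 0 mismatches, annotated by tRNA name and end). The submitters' notes name Bowtie and mm10. Levels are counts per 1000000 reads of the library (RPM). Counts of fragments, RNA species and RNA groups with at least 50 counts in at least 4 libraries were fitted over the whole table with edgeR 4.0.16 (TMM, quasi-likelihood test) in R 4.3.3, and with DESeq2 1.42.0 and apeglm 1.24.0. A call took an adjusted p (Benjamini-Hochberg) below 0.05 plus an absolute log2 fold change over 1. For shares, exact permutation tests (two-sided, 70 assignments) were used (Python 3.11.15, pandas 2.3.3). The edgeR and DESeq2 fits were tested on counts simulated from the levels of the RNA species, not of the fragments. No intervals are given, and for shares of reads this is because, lacking molecular identifiers, reads cannot be counted as single molecules. Named were, for each anticodon name with at least 10 RPM, its leading end class and any other of at least 10 RPM, its leading fragment, and the fragments with the lowest p. The members and lists were chosen with earlier results of these data known. Alternatives changed the scaling, filter, fragments counted, covariates and libraries.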

Additional observations from a re-analysis of the deposited data

Results flagged for a closer look

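Of 122 groups of 4 libraries examined (totals, shares, named fragments and species, and miRNA lists), 25 had a library whose gap to the nearest of the others passed Dixon's critical value for 4 values. For independent, normally distributed values about 1 in 20 groups is flagged. These groups share libraries and some fragments lie within named species, so the rate to set against the 25 is not known. The library was control replicate 3 in 10 cases and activated replicate 1 in 9.

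Control replicate 3 stood well above its group at the 5′ end of Ser-GCT (3674 RPM), Ser-CGA (209 RPM), Ser-TGA (109 RPM) and Leu-CAA/CAG (95.7 RPM). The same held for the internal fragments of Ser-CGA (18.8 RPM) and for the 15 nt fragments of Ser-GCT (2813 RPM), Ser-CGA (133 RPM) and Ser-TGA (31.5 RPM). It also held for the Leu-AAG/TAG fragments of 18 nt (70.5 RPM) and 17 nt (23.3 RPM).

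Activated replicate 1 was far above the other activated libraries for the tRNA-Leu total (5409 RPM) and the 5′ ends of Leu-AAG/TAG (2113 RPM), Leu-CAG (110 RPM), Leu-TAG (107 RPM) and Ser-TGA (41.6 RPM). It was likewise apart for the CCA end of Leu-CAA/CAG (66.9 RPM), the Leu-TAG fragment of 26 nt (46.9 RPM), and the erythroid (298 RPM) and epithelium (3476 RPM) lists.

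Activated replicate 3 was far above its group for the 15 nt fragment of Ser-GCT (282 RPM) and the 5′ end of Ser-GCT (616 RPM), and activated replicate 2 for internal Leu-CAG fragments (25.96 RPM). Activated replicate 4 was flagged for the Leu-AAG/TAG fragment of 20 nt (10.3 RPM), in a tight group of 9.26 to 9.42 RPM otherwise. Control replicate 4 stood well above its group for the epithelium (19420 RPM) and the smooth muscle and vessel (36068 RPM) lists.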

How the results depend on the processing

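The tests have 4 mice per group, and effects of cell makeup or RNA quality could not be separated from activation. The library sets are balanced over the groups, and with the set as covariate 157 of the 167 fragments were negative and 0 called. Where results moved, the cause was not tested. Of 676 values of 52 named fragments and species under alternatives, 647 kept their direction. Totals of both isotypes kept a negative direction in every alternative fit, though the tRNA-Leu ratio was above 1 within the low set. They ran from -0.38 to -0.12 for tRNA-Leu and from -0.94 to -0.33 for tRNA-Ser (log2 fold change) when 1 library at a time was left out. Called fragments numbered 1 with DESeq2, which passed the filter only through the control libraries. They numbered 9 of 1321, all lower, when 1 count in 4 libraries sufficed. At that filter 2800 of all 387985 fragments were called, 1057 of them lower. DESeq2 with apeglm gave the Ser-TGA 5′ fragment of 15 nt -2.04 against -2.55 with edgeR. For the other 5′ fragments with the lowest p it gave smaller changes. They were -0.14 for Ser-GCT of 15 nt (edgeR -2.88) and -0.15 for Ser-CGA of 15 nt (-2.39). For Leu-AAG/TAG of 20, 18 and 17 nt they were -0.89, -0.14 and -0.20 (edgeR -1.44, -2.18 and -1.75). The library size alone as scaling put the median of all fragments at 0.12 against 0.01 with TMM, and 153 against 157 of the 167 members were negative. Without control replicates 3 and 4, an alternative chosen after seeing the data, 0 fragments were called, and tRNA-Leu and tRNA-Ser stood at -0.07 and -0.20.

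The difference in tRNA-Leu share was -0.00832 percentage points, 0.0360 with fragments of 18 nt or more, 0.212 with genome-matched fragments, and -0.328 to 0.337 with 1 library left out. Scaled by library size alone, the CCA end of Ser-CGA stood at 0.0117, and with the library set as covariate internal Ser-AGA/CGA/TGA stood at 0.00958. With 1 library left out, log2 fold changes ran as follows at the fragment level: internal Leu-AAG/CAG/TAG of 15 nt -0.78 to 0.19, internal Leu-CAA/TAG of 15 nt -0.48 to 0.73, the CCA end of Leu-TAA of 39 nt -0.11 to 0.20, and internal Ser-AGA/CGA/TGA of 18 nt -0.27 to 0.22. Among tRNA-Leu species they ran for the CCA ends of Leu-AAG/TAG from -0.57 to 0.0728, of Leu-CAA from -0.11 to 0.18 and of Leu-TAA from -0.29 to 0.0129. For internal species they ran from -0.61 to 0.12 (Leu-AAG/CAG/TAG), -0.58 to 0.000187 (Leu-AAG/TAG), -0.47 to 0.47 (Leu-CAA/TAG) and -0.29 to 0.0902 (Leu-TAG). In tRNA-Ser they ran from -0.15 to 0.14 (internal Ser-AGA/CGA/TGA), -0.0878 to 0.0819 (CCA end of Ser-CGA) and -0.40 to 0.0512 (internal Ser-TGA).

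Same-numbered libraries did not correlate best with each other (-0.630, -0.549, 0.589 and 0.515), so the numbers were not taken as pairs. With the replicate block edgeR called 0 of the 167 fragments and 0 of the 41 species, as without it. Over all 12077 fragments it called 0, as did scaling by library size alone, against 61 in the main fit and 107 with the library set as covariate. With the block, internal Leu-CAA/TAG stood at -0.00464, and internal Ser-AGA/CGA/TGA had a value of 0.0152.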
